A study of Mus musculus with 104 samples.

Results

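The siRNA D5 silences Ttr and carries the glycol nucleic acid nucleotide GNA-G at position 6 of its guide strand, counted from the 5′ end. GNA is an acyclic nucleotide analog that weakens the pairing of the strand that holds it, and position 6 lies inside the seed (positions 2 to 8). The report covers the 4 libraries labelled D5 at 10 nM, of 104 libraries in the series, which were chosen by that label alone. They were compared with 8 libraries of mock transfection controls. The same comparison is given beside it for 4 libraries each of D4 at 10 nM (the parent siRNA without GNA), D6 at 10 nM (GNA-isoG in place of GNA-G at the same position) and D5 at 0.1, 1 and 50 nM. All of these cells were commercial primary mouse hepatocytes transfected with Lipofectamine RNAiMax in wells of a plate, and RNA was taken after 24 h. The labels give neither strain, age nor sex of the donor animals, and do not say whether the libraries of a group came from separate cultures or animals, so that the p-values measure the spread between these libraries, which may be technical.

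The guide strand of an siRNA is loaded into an Argonaute protein, which cuts mRNA that pairs with the guide along most of its length. The seed alone can also pair with sites in the 3′-UTR of other mRNAs and lower them in the manner of a microRNA, and nucleotides such as GNA are placed in the seed to weaken that pairing. Ttr encodes transthyretin, the carrier of thyroxine and of retinol-binding protein in plasma, which hepatocytes secrete.

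The sequences that bear on these libraries are of 2 kinds. The first are stretches of other mRNAs with 13 bases, CAGTGTTCTTGCT, identical to the part of the Ttr target site that lies opposite guide positions 7 to 19, which begins just beyond the modified nucleotide. These 13 bases were chosen after the values of the genes were seen. They are shown as 23-base windows from GRCm39, aligned with the whole target site, and capitals mark each base that is identical to the target site. The first 3 belong to genes that fell and the others to genes that did not.

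Zfp850 (chr7:27686626-27686648, minus strand, 3′-UTR): tctACAGTGTTCTTGCTtTcatc
Otud4 (chr8:80403182-80403204, plus strand, 3′-UTR): ctttCAGTGTTCTTGCTgTtcAA
Cnot6 (chr11:49563335-49563357, minus strand, 3′-UTR): AtttCAGTGTTCTTGCTgataAg
Rab34 (chr11:78082904-78082926, plus strand, 3′-UTR): ggggCAGTGTTCTTGCTgctTtt
Rxylt1 (chr10:121903985-121904007, minus strand, 3′-UTR): ActACAGTGTTCTTGCTtcAcAc
Phf21a (chr2:92194720-92194742, plus strand, 3′-UTR): tctcCAGTGTTCTTGCTCTtagc
Map4k3 (chr17:80956008-80956030, minus strand, retained intron): cttgCAGTGTTCTTGCTgaATcA

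Opposite guide positions 2 to 8, these windows held 3 or 4 bases identical to the target site, so that none of them is a match to the seed. The second kind are seed matches in the longest annotated 3′-UTR: the 8 letters CTCTATAA (mer8), which pair with positions 2 to 8 and place an A opposite position 1, CTCTATA without that A (mer7m8), and TCTATAA without the base opposite position 8 (mer7A1). They are shown for named genes of each class that were lower, and capitals mark the seed match.

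Spata6 (mer8, chr4:111685746-111685768, plus strand): tttccaatgtcaaaaCTCTATAA
Elovl2 (mer8, chr13:41336445-41336467, minus strand): gtataaaaaaaaagtCTCTATAA
Slc25a40 (mer8, chr5:8504535-8504557, plus strand): ttattatttacttatCTCTATAA
Otud4 (mer8, chr8:80401523-80401545, plus strand): taacctgataggcttCTCTATAA
Zfp850 (mer7m8, chr7:27685258-27685280, minus strand): ccaagatggaatgtcCTCTATAt
Ercc6l (mer7m8, chrX:101190179-101190201, minus strand): gaaggcatcgcttttCTCTATAg
Troap (mer7A1, chr15:98981256-98981278, plus strand): atcctttaataaagttTCTATAA
Btbd10 (mer7A1, chr7:112915439-112915461, minus strand): gcatcctcgttcgagtTCTATAA
Fancd2 (mer7A1, chr6:113523212-113523234, plus strand): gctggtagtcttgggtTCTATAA

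Otud4 and Zfp850 thus hold a seed match as well as the longer match, at separate places of the same 3′-UTR, and the effects of the 2 sites cannot be told apart in these data.

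The libraries held 4770308 to 5840357 gene counts with D5 at 10 nM and 3409963 to 5308584 in mock, in a series that ranged from 3409963 to 6160626. ERCC spike-ins, added RNA of known sequence, took 0.724% ± 0.171 (SD, n = 4) of the counts with D5 and 0.582% ± 0.106 (SD, n = 8) in mock, and the difference of 0.143 percentage points did not pass (exact permutation test, two-sided, p = 0.101). The chi-square of gene counts divided by its degrees of freedom, which is near 1 for counting error alone, was 2.72 to 5.35 between replicates of D5 and 0.994 to 1.07 between the 2 sequencing runs of a library, and the runs were summed.

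Ttr was nearly gone with D5 at 10 nM. Its level was 1.69, 2.93, 2.25 and 3.79 CPM (counts scaled to library size after TMM normalization) in the 4 libraries, from 8, 14, 11 and 22 counts, against 540.4 to 717 CPM with a median of 674.5 in mock. The groups were far apart, and the mean with D5 was 0.404% of the mock mean (log2 fold change −7.91 ± 0.12 SE, edgeR's quasi-likelihood test with Benjamini-Hochberg adjustment, adjusted p = 4.8e-31, n = 4 and 8). The log2 fold change of Ttr against mock was −8.76 with D4 and −8.95 with D6 at the same dose. The difference of D5 from D4 was 0.85 on the log2 scale with a 95% interval (1.96 SE) of 0.08 to 1.61 and did not pass the test over all genes (adjusted p = 0.14), so that at these low counts the 2 siRNAs were neither shown to differ nor to act alike on Ttr. Against D6 the counts of Ttr were too low to be tested. Gapdh, a glycolytic enzyme used as a reference, was at 684.3 to 728.7 CPM with D5 and 688.9 to 776.2 in mock (−0.08 ± 0.05, adjusted p = 0.35).

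The level of Ttr did not follow the dose of D5. At 0.1 nM it was 3.32, 1.16 and 2.56 CPM in replicates 1, 3 and 4, as low as at 10 nM, and 72.8 CPM in replicate 2, which stood apart from the others. The comparison of 10 with 0.1 nM gave −2.83 ± 1.59 for Ttr (adjusted p = 0.51) and, without that replicate, 0.20 (adjusted p = 0.90). At 1 and 50 nM the log2 fold changes against mock were −8.46 and −9.30.

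Apart from Ttr, 3 mRNAs with the 13-base match fell. Otud4, which encodes a deubiquitinase, was at 61.8, 57.4, 70.0 and 59.1 CPM with D5 and at 124.7 to 148.9 (median 140.3) in mock. The D5 and mock libraries did not overlap, and the mean was 45.0% of mock (−1.15 ± 0.07, adjusted p = 3.1e-16). Cnot6, a catalytic subunit of the CCR4-NOT complex that shortens poly(A) tails, was at 99.5, 91.7, 96.3 and 105.4 CPM against 145.5 to 166.1 (median 159.5), again without overlap (−0.69 ± 0.06, adjusted p = 1.4e-11). Zfp850, a zinc finger protein gene of low expression, was at 1.91, 3.35, 3.07 and 3.96 CPM against 6.24 to 8.29 (median 7.33), and it also did not overlap with mock (−1.22 ± 0.21, adjusted p = 0.00014).

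Of the 8 genes tested other than Ttr that held the match in any annotated transcript, these 3 were lower, Map4k3 was higher and 4 did not pass the test. Over all 11267 genes tested, 3.54% were lower and 4.58% higher. Map4k3, a protein kinase whose match lies only in a transcript with a retained intron, was at 104.3 to 121.5 CPM with D5 and 89.4 to 109.7 in mock (0.19 ± 0.06, adjusted p = 0.048), with overlap, and it passed the test in 6 of the 12 fits that each left out 1 library. The values of Rab34 (−0.19 ± 0.19), Alg6 (−0.15 ± 0.16), Rxylt1 (−0.05 ± 0.08) and Phf21a (0.05 ± 0.12) did not pass. The match of Alg6, a glucosyltransferase of N-glycan assembly, spans an exon junction of a transcript marked for nonsense-mediated decay. The other 13-base stretches of the target site were found in between 1 and 14 tested genes each, of which at most 2 were lower.

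The values of these genes are given next by dose of D5 and beside D4 and D6. The log2 fold change of Otud4 against mock went from the lowest to the highest dose of D5 as follows (−0.16, −0.59, −1.15 and −1.11 at 0.1, 1, 10 and 50 nM), and at 0.1 nM all 4 libraries lay at 117.7 to 127.4 CPM although Ttr was nearly gone in 3 of them. For Cnot6 the values were −0.20, −0.45, −0.69 and −0.54. At 1 nM only 5 genes in all passed the test (683 at an unadjusted p under 0.05), and Ttr, Otud4 and Cnot6 were the 3 that were lower. At 0.1 nM no gene passed in edgeR's test, Ttr included, whose replicates were that unequal (1013 genes at an unadjusted p under 0.05). Otud4 and Cnot6 with D5 differed from D4 by 0.11 (95% interval −0.09 to 0.31) and 0.15 (−0.04 to 0.33), and from D6 by −0.13 (−0.3 to 0.05) and −0.02 (−0.16 to 0.13), and none of the 4 differences passed the test. Zfp850 was as low with D4 (−1.44) as with D5, but with D6 it was at 4.57 to 8.66 CPM (−0.17 ± 0.19, adjusted p = 0.56), and the difference of D5 from D6 was −1.05 with a 95% interval of −1.6 to −0.5 (adjusted p = 0.0072). Rab34, which encodes a Golgi and cilium GTPase, was lower with D4 (−1.58 ± 0.24, adjusted p = 8.1e-06) and not shown to be lower with D5, and the difference was 1.40 ± 0.28 (adjusted p = 0.0012).

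**Figure D1:**
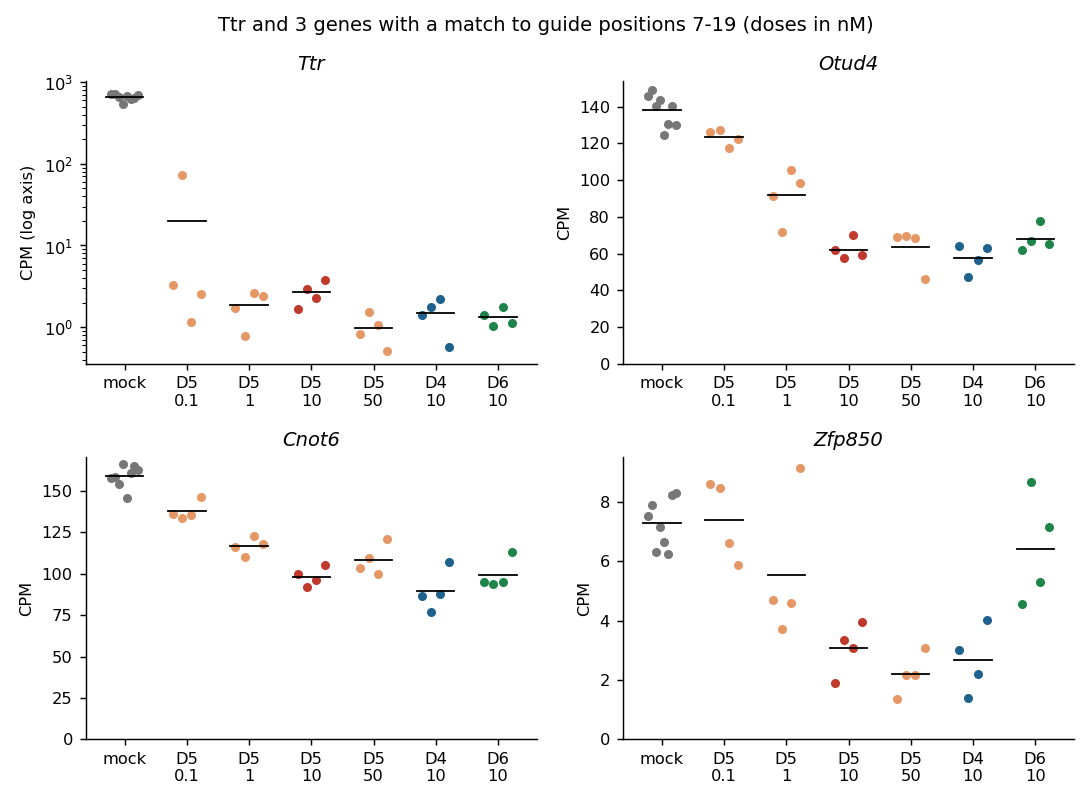
Level (CPM, each point 1 library, black line the mean) of Ttr on a log axis and of Otud4, Cnot6 and Zfp850 on linear axes in mock, in D5 at 0.1, 1, 10 and 50 nM, and in D4 and D6 at 10 nM. Ttr is low at every dose except in 1 library at 0.1 nM, Otud4 and Cnot6 decline between 0.1 and 10 nM, and Zfp850 is near mock with D6 alone among the siRNAs at 10 nM.

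Across the whole transcriptome, 915 of 11267 genes (399 lower and 516 higher) passed the test with D5 at 10 nM. Most of these changes were small: the median size was 0.33 on the log2 scale and 32 genes changed by at least 2-fold. The count fell to 588 without D5 replicate 3 and to 591 without replicate 2, and without mock replicate 8 it was 1003. With D4 at the same dose 14.4% of the genes tested were lower and 12.2% higher (1631 and 1388 genes), and with D6 13.9% and 11.9% (1576 and 1347). These comparisons share the mock libraries. The direct comparison of D5 with D4 gave 746 genes lower (6.71% of 11123) and 1167 higher (10.5%), and that of D5 with D6 gave 770 lower (6.94% of 11095) and 1148 higher (10.3%). In bulk RNA, fewer cells of a type and less RNA per cell cannot be told apart.

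The libraries with D5 at 10 nM also differed from mock in how levels varied with the GC content of transcripts, and this touches every count given here. The slope of a library was between 0.0764 and 0.121 on the log2 scale per 10 percentage points of GC with D5 and between −0.065 and 0.0521 in mock, without overlap (difference of means 0.102, exact permutation test over libraries, two-sided, p = 0.00404, the smallest this design can give). The genes were split into 10 bins of GC content. In the bin with the lowest GC content 115 were lower and 11 higher, and in that with the highest 7 were lower and 98 higher. With an offset that sets each bin to 0 in each library, a setting chosen after the data were seen, these counts became 33 and 29, and 24 and 63. With the offset 295 genes were lower (2.62% of 11256) and 462 higher (4.1%), and 643 of these 757 calls were among the 915. The slopes were 0.0146 to 0.255 with D4, 0.0342 to 0.14 with D6 and 0.0425 to 0.0746 with D5 at 50 nM. The source of the GC difference was not tested.

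**Figure D2:**
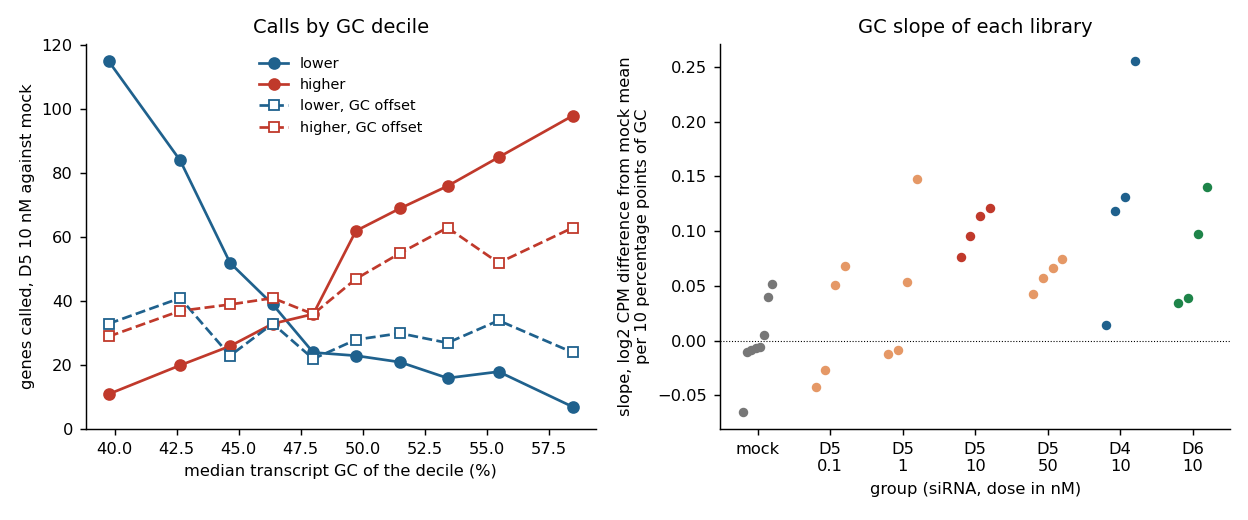
Left, number of genes called lower (blue) and higher (red) with D5 at 10 nM against mock in each of 10 bins of transcript GC content, placed at the median GC (%) of the bin, without (solid) and with (dashed) the GC offset. Right, slope of each library on GC content (log2 per 10 percentage points), where the 4 libraries with D5 at 10 nM lie between 0.0764 and 0.121, above all 8 mock libraries.

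Genes with a seed match moved little with D5. Of 328 tested genes with a mer8 match, Ttr left out, 21 were lower and 7 higher, and the median log2 fold change was −0.038, against 0.003 for 8507 genes with no match (280 lower and 437 higher). Genes with a match were also poorer in GC, with a median of 46.0% for mer8 and 49.9% for no match. With the GC offset the mer8 genes gave 12 lower and 4 higher, with a median of −0.003. For mer7m8, 32 of 718 genes were lower and 33 higher (18 and 36 with the offset), and for mer7A1, 54 of 1117 were lower and 34 higher (34 and 36 with the offset).

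With D4, 130 of 331 mer8 genes were lower and 12 higher, with a median of −0.184, beside 1016 lower and 1189 higher of 8558 genes with no match. With D6, 97 of 330 were lower and 23 higher, with a median of −0.103, beside 1048 and 1098 of 8529. With D5 at 50 nM, 8 of 328 were lower and 7 higher, beside 168 and 429 of 8467. In the direct comparison of D5 with D4, 94 of 325 were higher with D5 and 6 lower, with a median of 0.154, beside 737 higher and 622 lower of 8442 with no match. Among all 16232 sequences of 7 letters found in the 3′-UTR of at least 50 tested genes, ordered by the mean log2 fold change of the genes that hold them, TCTATAA was number 1016 from the lowest and CTCTATA number 2802. Seeds of the passenger strand gave 32 lower (3.7%) and 38 higher (4.4%) of 859 mer8 genes, beside 3.5% and 5.3% of 7161 genes with no such match. Seeds of miR-122, the main microRNA of hepatocytes, gave 13 lower (2.7%) and 27 higher (5.5%) of 488, beside 3.9% and 4.7% of 8351.

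Single genes with a seed match fell with D5, as did 280 of the 8507 genes with no match. Whether the match lowered any of them was not tested. Those named here were chosen among lower genes without overlap of D5 and mock, so that lack of overlap was fixed by the choice. Slc25a40, a mitochondrial carrier for glutathione with a mer8 match, was at 11.01, 11.31, 11.25 and 10.33 CPM against 12.73 to 19.01 (median 17.2) in mock, without overlap (−0.62 ± 0.13, adjusted p = 0.0017). With D4 it fell further (−1.47 ± 0.15), and the difference of D5 from D4 was 0.86 ± 0.18 (adjusted p = 0.0017). Btbd10, with a mer7A1 match, was at 11.6, 8.80, 11.7 and 14.8 CPM against 16.96 to 25.08 (median 20.1), again without overlap (−0.80 ± 0.13, adjusted p = 7.8e-05). It also fell further with D4 (−1.63 ± 0.14), with a difference of 0.83 ± 0.19 (adjusted p = 0.0045). Elovl2, an elongase of very long polyunsaturated fatty acids with a mer8 match, was lower by a like amount with D5 (−0.63 ± 0.14, adjusted p = 0.0026) and D4 (−0.56 ± 0.13), and the difference of −0.06 ± 0.18 did not pass. Spata6 (−1.01 ± 0.26, adjusted p = 0.0096) passed except without D5 replicate 4, and Ercc6l, a DNA translocase of mitosis (−0.63 ± 0.13, adjusted p = 0.0016), passed in all 12 fits that left out 1 library. Hmgn5, a nucleosome-binding protein gene with 2 mer7m8 matches (−0.61 ± 0.17, adjusted p = 0.014), did not pass with the GC offset (adjusted p = 0.062) nor without D5 replicate 2.

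Apart from Ttr and the genes with the 13-base match, the 10 largest decreases held the following genes. Parpbp, an inhibitor of homologous recombination, was at 3.39, 5.03, 5.52 and 5.17 CPM against 7.76 to 13.9 (median 11.3) in mock (−1.18 ± 0.20, adjusted p = 6.8e-05). Pbk, a mitotic kinase, was at 7.62, 10.3, 7.77 and 4.65 CPM against 11.6 to 20.2 (median 14.4), with −1.05 ± 0.18 and an adjusted p of 8.8e-05. Ube2c, the ubiquitin-conjugating enzyme of the anaphase-promoting complex, was at 19.5, 22.6, 17.4 and 20.2 CPM against 26.3 to 46.4 (median 34.2), with −0.83 ± 0.12 and an adjusted p of 5.3e-06. The 10 largest decreases and the 10 largest increases were chosen among genes without overlap of D5 and mock. Lack of overlap was thus fixed by the choice for all of them. The others of the 10 largest decreases were Troap (−1.07 ± 0.23), a protein of the mitotic spindle, Fancd2 (−1.01 ± 0.22), a protein of DNA crosslink repair, Cyb5d1 (−0.88 ± 0.22) and Ccnb1 (−0.85 ± 0.14), the cyclin of mitotic entry. Troap and Fancd2 have a mer7A1 match, and so does Peg3, which is among the 10 largest increases. That of Fancd2 starts at position 113523228, in a plus-strand gene that spans 113508412 to 113573982. It thus lies in the 3′-UTR of a transcript that ends far upstream of the end of the gene. Whether the expressed Fancd2 transcripts hold it was not tested. Fancd2 and Cyb5d1 did not pass on the second sequencing run alone.

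The largest increase was that of Itgb4. Itgb4, the β4 integrin of hemidesmosomes, was at 18, 12.8, 13.1 and 8.61 CPM against 2.32 to 5.56 (median 4.04) in mock, without overlap (1.76 ± 0.20, adjusted p = 6.9e-08). It rose much more with D4 (4.30 ± 0.13) and D6 (3.53 ± 0.14), and D5 was lower than D4 by 2.53 on the log2 scale (log2 difference −2.53 ± 0.15, adjusted p = 3.6e-10). Col4a2, a chain of type IV collagen, showed the reverse order. It was at 585.3, 592.5, 649.8 and 531.8 CPM against 236.1 to 286.3 (median 272.1), without overlap (1.12 ± 0.05, adjusted p = 3.1e-19), and it rose less with D4 (0.32 ± 0.07) and D6 (0.89 ± 0.05). Col4a2 was 1 of the 2 genes already higher at 1 nM, where it was at 315.6 to 379.6 CPM, and at 50 nM it was higher by 1.20.

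Other type IV collagen chains, chosen after their values were seen, moved in the same direction. Col4a1 was at 613.8 to 793.1 CPM against 383.6 to 490.3 (0.68 ± 0.06, adjusted p = 3.3e-09), and Col4a5 at 20.8 to 30.3 CPM against 9.23 to 17.5 (0.91 ± 0.13, adjusted p = 7.6e-06), both without overlap. Both were higher with D5 than with D4, by 0.44 ± 0.08 and 1.03 ± 0.17. Col4a1 and Col4a2 share a promoter region and are neighbours in the genome, so that they are not independent observations.

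The other genes of the 10 largest increases were of varied roles. Crct1, a gene of the epidermal differentiation complex, was at 69.2, 140.3, 63.4 and 131.4 CPM against 22.8 to 47.2 (median 33.6), with 1.59 ± 0.25 and an adjusted p of 0.0031. Its replicates with D5 were unequal, and it did not pass with the replicate number as a block. Peg3, an imprinted gene for a zinc finger protein, was at 66.1, 75.0, 83.4 and 101.4 CPM against 30.9 to 41.2 (median 37.2), without overlap (1.16 ± 0.09, adjusted p = 3.5e-12). Ifi30, a lysosomal thiol reductase, was at 55.7, 65.5, 66.3 and 67.5 CPM against 25.0 to 37.2 (median 29.9), with 1.07 ± 0.09 and an adjusted p of 5.8e-12, and it was 0.92 ± 0.10 higher than with D4. Timp2, an inhibitor of matrix metalloproteinases, was higher with D5 (1.04 ± 0.20, adjusted p = 0.00041) but lower with D6 (−0.80 ± 0.27), a difference of 1.84 ± 0.28 (adjusted p = 9.5e-06). Zfp469 (1.12 ± 0.14), a regulator of collagen expression, Krt7 (1.15 ± 0.21), a keratin, Ntn4 (1.11 ± 0.20), a netrin of basement membranes, and Eprn (1.03 ± 0.16) completed the 10. Each of these passed in all 12 fits that left out 1 library.

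Of 34 cell cycle genes tested, 16 were lower and 1 was higher, beside 3.54% lower and 4.58% higher of all genes, with a median log2 fold change of −0.388 against −0.005 for all genes tested. The list holds cyclins, mitotic kinases and replication factors, which act in dividing cells. With the GC offset 17 were lower and none higher (median −0.366), and leaving out 1 library gave 13 to 19 lower. The mean log2 difference of the members from mock was −0.428, −0.213, −0.289 and −0.216 in the 4 D5 libraries and lay between −0.112 and 0.179 in mock, without overlap.

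The members that were lower include genes of mitosis and of S phase entry. Members of DNA replication and S phase that did not pass include Mcm2 (adjusted p = 0.17), Mcm3 (0.16), Mcm7 (0.13), Pcna (0.069), Rrm1 (0.051) and Cdk2 (0.53). Mki67, the proliferation marker Ki-67, was at 113.5, 113.1, 113.3 and 111.1 CPM against 144.6 to 206.6 (median 169.6) in mock (−0.60 ± 0.07, adjusted p = 1.7e-06). Top2a, the topoisomerase of dividing cells, was at 82.8, 95.1, 99.2 and 88.9 CPM against 113.1 to 157.2 (median 124.4), with −0.49 ± 0.07 and an adjusted p of 2.4e-05. Ccnb1 was at 9.95, 13.4, 11.9 and 12.9 CPM against 17.4 to 30.4 (median 20.3), with −0.85 and an adjusted p of 0.0001, and Aurka, a mitotic kinase, at 16.3, 20.3, 16.98 and 18.6 CPM against 22.9 to 35.1 (median 29.5), with −0.70 and an adjusted p of 5.7e-05. None of these 4 overlapped with mock. Ccna2 (−0.63), Cdc20 (−0.61), Birc5 (−0.56), Aurkb (−0.49), Foxm1 (−0.46) and Cdk1 (−0.39), all of G2 and mitosis, were lower as well, as were Ccne1 (−0.59), Ccne2 (−0.55), E2f1 (−0.50), Tyms (−0.47), Rrm2 (−0.45) and Mcm6 (−0.40), which act in S phase entry and DNA synthesis. Ccnd1, cyclin D1, was the member that was higher (0.19 ± 0.06, adjusted p = 0.043).

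Against mock, 16 of the 34 members were also lower with D4 and 6 higher (median −0.089), and 16 were lower with D6 and 4 higher (median −0.134). Of all genes, 14.4% were lower and 12.2% higher with D4, and 13.9% and 11.9% with D6. Mki67, Top2a, Ccnb1 and Aurka were lower with both. These comparisons share the mock libraries. Some members of the list differed between the modified siRNA and its parent. E2f1, Mcm6 and Mcm3 were at −0.50, −0.40 and −0.18 with D5 and at 0.11, 0.04 and 0.28 with D4, and each was lower with D5 than with D4 in the direct comparison (−0.60, −0.44 and −0.45, adjusted p = 0.022, 0.0017 and 0.0025). Ccne1, cyclin E1, was at −0.59 with D5 and at −1.98 with D4 and −1.75 with D6, and the difference of D5 from D4 was 1.40 (adjusted p = 2.2e-05). In all, 9 members were lower and 3 higher with D5 than with D4, with 9 lower and 8 higher against D6, beside 6.71% lower and 10.5% higher of all genes against D4 and 6.94% and 10.3% against D6. At 50 nM of D5, 16 members were lower and 1 higher, beside 1.97% lower and 4.58% higher of all 11194 genes tested. Against D5 at 0.1 nM, 11 were lower and none higher, beside 0.975% lower and 1.67% higher of 11081 genes.

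Promoters of the list were read from RefSeq (GRCm38.p6, 250 bases before to 50 after the start of the gene). CCAAT, the NF-Y motif, was searched for on both strands, as was TTTGAA, the core of the cell cycle genes homology region, and neither motif contains the other. Of the 34 members 26 matched a promoter. CCAAT was in 8 of 12 promoters of members called lower (66.7%), in 10 of 14 of the others (71.4%) in 39.2% of the promoters of genes tested and in 37.9% of all 27025 promoters. TTTGAA was in 5 of 12 (41.7%), 3 of 14 (21.4%), 11.9% and 18.1%. The windows below, on the strand of the gene and with the CCAAT motif or its complement in capitals, are from 3 members that were lower, to show what was counted. A match is a description and not a site of binding.

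Ccnb1 (GRCm38.p6, chr13:100786537-100786565, minus strand): gccacgaactggCCAATgaggagcgagcg
Cdk1 (GRCm38.p6, chr10:69352976-69353004, minus strand): agctcagctctgATTGGctcctttgaacg
Mcm6 (GRCm38.p6, chr1:128359703-128359731, minus strand): tcctaccctgttATTGGctgaggtgagag

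**Figure D3:**
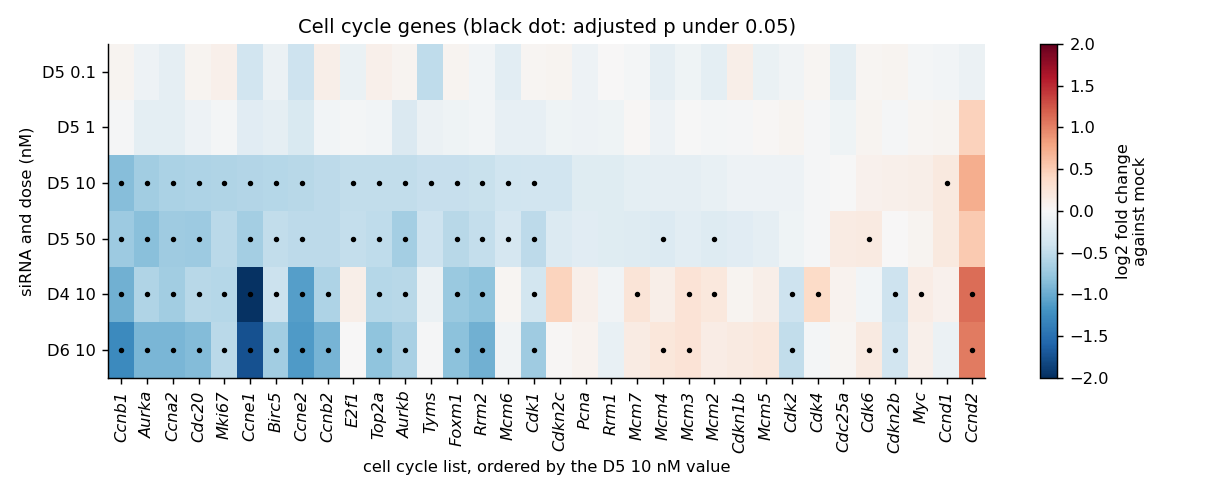
Log2 fold change (color, scale −2 to 2) against mock of the 34 cell cycle genes in 6 comparisons (rows, siRNA and dose in nM), with a dot where the adjusted p was under 0.05. With D5 at 10 nM 16 genes are lower and Ccnd1 is higher.

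Of 49 genes of the cytoskeleton, the matrix and the YAP pathway, 16 were higher and none lower, beside 4.58% higher and 3.54% lower of all genes, with a median of 0.053 (15 higher and 1 lower with the GC offset). Itga5, the α5 integrin, was at 67.8, 91.1, 89.8 and 82.8 CPM against 47.4 to 67.3 (median 55.2) in mock (0.56 ± 0.08, adjusted p = 7.2e-06). Tubb2a, a β-tubulin, was at 328, 321.3, 345.2 and 352.5 CPM against 227.3 to 271.4 (median 254.9), with 0.41 ± 0.05 and an adjusted p of 4.4e-07. Tgfbr2, the type 2 receptor of TGF-β, was at 260, 271.8, 274.9 and 262.5 CPM against 184.4 to 220.7 (median 208.6), with 0.39 ± 0.05 and an adjusted p of 2.4e-06. The groups did not overlap for these 3 genes. Tgfbr2 was lower than mock with D4 (−0.92 ± 0.07) and D6 (−0.69 ± 0.06), and higher with D5 than with D4 by 1.32 ± 0.07 (adjusted p = 2.3e-11). Tgfb2 (0.74), Amotl2 (0.32), Lamc1 (0.32), Flna (0.23) and Vcl (0.23) were also higher.

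The keratins Krt19 and Krt7 are in this list and are also markers of cholangiocytes, the cells of bile ducts. Krt19 was at 143.8, 146.2, 188.6 and 179.3 CPM against 105.1 to 134 (median 110.7), with 0.54 ± 0.07 and an adjusted p of 1.3e-06, and Krt7 at 9.95, 11.7, 23.1 and 17.1 CPM against 4.16 to 9.02 (median 7.19). Of 6 cholangiocyte markers tested, these 2 and Epcam (1.15 ± 0.30, adjusted p = 0.0096) were higher and none was lower, and the sum of the list was 245.9 to 305.8 CPM with D5 and 193.6 to 219.7 in mock. Krt19 made up most of that sum, and Epcam was at 2.93 to 4.61 CPM with D5 and 0.585 to 2.81 in mock. Sox9 (19.6 to 22.8 CPM against 16.97 to 21.8) and Spp1 (11.7 to 20.1 CPM against 12.5 to 24.8) did not pass. Over all genes tested, 4.58% were higher and 3.54% lower. With D5 at 10 nM set against 0.1 nM, Krt7 was higher in edgeR's test (1.05, adjusted p = 0.013). Krt19 (0.74, adjusted p = 0.13) and Epcam (0.34, adjusted p = 0.68) did not pass there. The part of cholangiocytes in the result was not tested. The hepatocyte markers were expressed in every library, with a sum of 32010 to 37970 CPM with D5 and 29820 to 36590 in mock, and of 19 tested, Ahsg was higher and Cyp2e1 lower. Of 15 Kupffer cell and macrophage markers, 8 were at 0 in all 12 libraries, Clec4f, Timd4, Marco and Vsig4 among them. Their sum was 227.8 to 253.7 CPM with D5 and 201.5 to 256.3 in mock and was mostly Cd14 (201.3 to 230.8 and 185 to 233 CPM), and Cd68 was higher (0.40 ± 0.12, adjusted p = 0.026, in 9 of the 12 fits that left out 1 library). Of 12 endothelial markers 4 were at 0, Kdr and Clec4g among them, while Stab1 was at 7.12 to 9.53 CPM with D5 and 4.68 to 9.55 in mock. Of 12 stellate cell and fibroblast markers Des was at 0, and the sum was 15.5 to 20.12 and 16.58 to 29.25 CPM. Of 11 lymphocyte and neutrophil markers 5 were at 0, Cd3d and Ms4a1 among them, while Cd3e was at 3.1 to 7.2 CPM with D5 and 0.585 to 4.30 in mock. The part of these cells in the results was not tested.

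**Figure D4:**
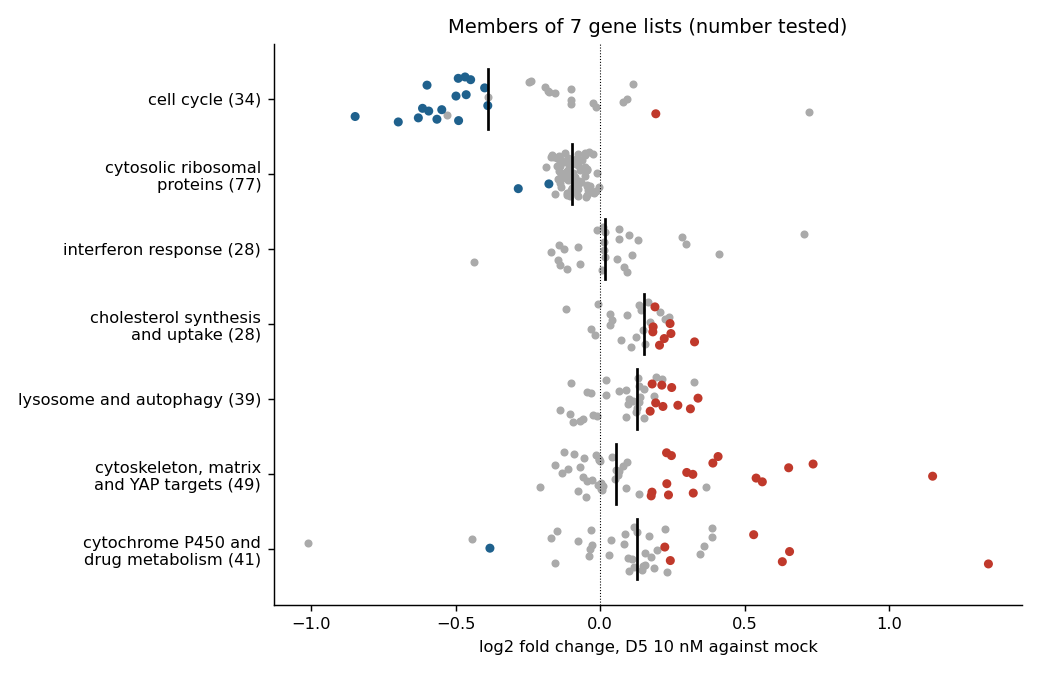
Log2 fold change with D5 at 10 nM against mock of the members of 7 gene lists. Blue and red points passed the test (adjusted p under 0.05), grey points did not, and the black line is the median, which is −0.388 for the cell cycle list.

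Of 39 lysosomal genes 9 were higher and none lower, beside 4.58% and 3.54% of all genes, with a median of 0.129 (7 with the GC offset, and 4 without D5 replicate 2). Grn, the precursor of the granulins, was at 846.2, 889, 918.3 and 837.7 CPM against 580.4 to 767.7 (median 702.7) in mock (0.34 ± 0.06, adjusted p = 0.00014). The cathepsins Ctsd (0.31 ± 0.06), Ctsz (0.27 ± 0.06), Ctsl (0.22 ± 0.05) and Ctsb (0.17 ± 0.05) were higher too, and so were Neu1, Npc2, Psap and Gabarapl1. With D5 at 50 nM, 9 were higher as well, and with D4 14 were higher and 3 lower (12.2% and 14.4% of all genes). These comparisons share the mock libraries. Set directly against D5 at 0.1 nM, none of the 39 passed with D5 at 10 nM (median 0.046). The median with D5 at 0.1 nM was 0.080 against mock, where none passed.

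With D5, 8 of 28 genes of cholesterol synthesis and uptake were higher and none lower, beside 4.58% and 3.54% of all genes (median 0.151, 9 higher with the GC offset), among them Fdft1, squalene synthase, at 203.1, 232.7, 209 and 224.6 CPM against 167 to 207.4 (median 181.5) in mock (0.22 ± 0.06, adjusted p = 0.011). Dhcr7, the last enzyme of cholesterol synthesis, was at 71.4, 75.6, 57.1 and 58.7 CPM against 41.6 to 62.0 (median 51.2), with 0.33 ± 0.09 and an adjusted p of 0.021. The D5 and mock libraries overlapped for both. Cyp51, Sqle, Hmgcs1 and Insig1 were higher too. The count was 1 without D5 replicate 2 and 5 without D5 replicate 1, D5 replicate 3 or mock replicates 3, 4 or 7, and no member passed with D5 at 50 nM. A fit over all libraries gave 3. Set directly against D5 at 0.1 nM, none of the 28 passed with D5 at 10 nM (median 0.027). The median with D5 at 0.1 nM was 0.122 against mock, where none passed. With D4, 10 members were lower and 2 higher (14.4% and 12.2% of all genes), and in the direct comparison 13 were higher with D5 than with D4 and none lower (10.5% and 6.71% of all genes), with Insig1 at 0.68 (adjusted p = 3.3e-06) and Hmgcs1 at 0.55 (adjusted p = 3.1e-05).

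Of 28 interferon-stimulated genes tested, none passed with D5 at 10 nM in edgeR's test, in either direction, and the median was 0.015. At an unadjusted p under 0.05 there were 2, and DESeq2 called 1 (Rsad2). Isg15 was at −0.12 ± 0.29, Ifit1 at 0.06 ± 0.28 and Oasl1 at 0.06 ± 0.14, and the highest value was that of Rsad2 (0.70 ± 0.22, adjusted p = 0.079). None passed with D5 at 50 nM either. With D6 10 of these genes were lower than mock (13.9% of all genes), and 9 were higher with D5 than with D6 (10.3% of all genes), among them Oasl1 by 0.80 (adjusted p = 6.2e-06) and Bst2 by 0.47 (adjusted p = 3e-06).

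Of 20 genes of the p53 response 4 were higher, beside 4.58% of all genes. Btg2, an antiproliferative target of p53, was at 172.6, 156.9, 189.4 and 155.7 CPM against 82.7 to 113.8 (median 111.5) in mock (0.67 ± 0.07, adjusted p = 3.3e-08), and Plk2, a kinase of the stress response, at 266.2, 305.6, 272.4 and 284.9 CPM against 171.9 to 224.9 (median 191.3), with 0.54 ± 0.06 and an adjusted p of 1.1e-08. Cdkn1a, the cell cycle inhibitor p21, was at 237.8, 277.3, 264 and 285.4 CPM against 202.4 to 235.9 (median 216.3), with 0.29 ± 0.05 and an adjusted p of 0.00022. All 3 were without overlap, and with D4 Btg2, Plk2 and Cdkn1a were higher too (0.84, 0.57 and 0.28). Bbc3 (0.55 ± 0.14, adjusted p = 0.0099) was the fourth, and did not pass without D5 replicate 2.

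For the lists of this paragraph, the shares over all genes were 4.58% higher and 3.54% lower. Among oxidative stress genes 4 of 29 were higher. Hmox1, heme oxygenase 1, was at 293.3, 400.2, 331.7 and 331.5 CPM against 127.4 to 231.6 (median 200.2), without overlap (0.79 ± 0.14, adjusted p = 0.0053), and Osgin1 at 582.3 to 651.2 CPM against 422.4 to 562.6 (0.27 ± 0.06, adjusted p = 0.0022). Abcc4 (0.38) and Srxn1 (0.25) were the others. The count was 2 without D5 replicate 2 and 9 without mock replicate 6. With D5 at 10 nM set against 0.1 nM, 1 of the 29 was higher (Osgin1), beside 1.67% of all genes, with a median of 0.037. The median with D5 at 0.1 nM was 0.090 against mock, where none passed. Of the unfolded protein and integrated stress response, Ddit4 (0.49), Sesn2 (0.28) and Ppp1r15a (0.27) of 36 genes were higher, and 1 was higher and 1 lower with the GC offset. Of the heat shock genes, Hspb1 was higher (0.45 ± 0.07, adjusted p = 7.4e-06) and Hspd1 lower (−0.19 ± 0.05, adjusted p = 0.0096).

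Genes of liver function are given by list, beside 4.58% higher and 3.54% lower of all genes. Ahsg, fetuin-A, was at 1320, 1471, 1503 and 1372 CPM against 682 to 992.6 (median 826.1), without overlap (0.78 ± 0.09, adjusted p = 0.00016). Of 37 complement and coagulation genes, Fgg, the γ chain of fibrinogen (0.30 ± 0.06, adjusted p = 0.0011), and Plg, plasminogen (0.27 ± 0.06, adjusted p = 0.0023), were higher. Fgg was lower than mock with D4 (−0.99 ± 0.07), a difference of 1.30 ± 0.08 (adjusted p = 3.2e-10). Of 41 genes of drug metabolism, 6 were higher and 1 lower, with Cyp2d22 at 14.7 to 18.6 CPM against 8.66 to 13.2 (0.66 ± 0.13, adjusted p = 0.001), and the count of higher genes was 2 without D5 replicate 3. Cyp2c29 (0.24 ± 0.07), like other members of its gene cluster, has close copies that can share reads. Of 26 acute phase and NF-κB genes, Ccl2 (0.44 ± 0.05, adjusted p = 6.9e-08), Tnfaip3 (0.31 ± 0.06) and Saa2, serum amyloid A2 (0.21 ± 0.06), were higher and Cxcl1 (−0.34 ± 0.07, adjusted p = 0.0011) and Il1r1 (−0.39 ± 0.11) lower. Of 12 genes for partners of transthyretin and for vitamin A metabolism, Aldh1a7 (0.35 ± 0.10) and Rdh11 (0.21 ± 0.06) were higher, and Rbp4 did not pass. No gene of bile acid synthesis and transport (18 tested) passed in edgeR's test (4 at an unadjusted p under 0.05, and DESeq2 called Abcc3), 1 of 41 in urea and amino acid metabolism did (Got1, 0.24), and of 34 in glucose metabolism 4 were higher (Aldoa, Slc2a1, Pfkfb3 and Hk2, the last at 0.44 ± 0.13) and Ldha lower (−0.19 ± 0.05). Of 36 in fatty acid oxidation Angptl4 and Etfa were lower and Plin2 higher, of 29 in lipogenesis Lpin1, Acacb and Fasn were higher, and of 28 hepatocyte transcription factors Nr2f2 was lower. Of 76 genes of the respiratory chain, Atp5c1 (−0.18) was lower. None of 37 proteasome genes passed in edgeR's test or in DESeq2 (2 at an unadjusted p under 0.05).

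The lists of this paragraph stand beside 3.54% lower and 4.58% higher of all genes. Within the RNA interference machinery, 1 of 31 genes was lower and 1 higher, near those shares. They were Cnot6, described above for its match to the guide, and Tnrc6a, the Argonaute-binding GW182 protein, at 189.5, 198.3, 211.1 and 186.5 CPM against 125.7 to 154.2 (median 143.9), without overlap (0.46 ± 0.06, adjusted p = 2.6e-07). Ago1 to Ago4 and Dicer1 did not pass. Of 16 reported targets of miR-122, Aldoa (0.23 ± 0.05) and Lamc1 were higher and none was lower. Of 37 genes of membrane trafficking, Ssr2 (0.43 ± 0.06), Ergic1 and Srpr were higher and Ssr3 (−0.20 ± 0.05), Tram1 and Rab1a lower, and with the GC offset none of these was lower.

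Ribosomal protein genes differed from mock by little. All 77 tested had a log2 fold change below 0, with a median of −0.098 and a range of −0.28 to −0.003, while 2 passed the test (Rpl22l1 and Rpl3) and 9 did with the GC offset. With D4 none was lower and 43 were higher (12.2% of all genes), with a median of 0.179, and in the direct comparison 54 of 77 were lower with D5 than with D4 (6.71% of all genes), with a median of −0.253. Against D6 none passed. Nor did any of the 77 pass with D5 at 10 nM set against D5 at 0.1 nM (median −0.016). D5 at 0.1 nM had a median of −0.0695 against mock, where none passed. The nuclear genes of the respiratory chain were lower with D5 than with D4 in 16 of 76 cases (6.71% of all genes). Reads of ribosomal protein genes can be shared with their many processed pseudogenes, and only uniquely aligned reads were counted.

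The direct comparison of D5 with D4 also held genes that differed from both mock and D4 in the same direction. Among genes with a mean of at least 5 CPM over the D5 and mock libraries, 163 were higher and 52 lower with D5 than with both mock and D4. Of all genes tested, 4.58% were higher and 3.54% lower than in mock, and 10.5% and 6.71% than with D4. The largest difference of those higher was that of Igfbp7, an insulin-like growth factor binding protein, at 9.32, 10.3, 12.3 and 10.2 CPM with D5, 6.44 to 8.70 in mock and far lower with D4 (−2.07 ± 0.23 against mock), a difference of 2.55 ± 0.25 (adjusted p = 2.1e-07). Its call against mock was weak (0.48 ± 0.15, adjusted p = 0.048) and passed in 3 of the 12 fits that left out 1 library. Ccl20, a chemokine (2.31 ± 0.27 over D4), Nfkbie, an inhibitor of NF-κB (1.69 ± 0.24), and Fam129b (1.60 ± 0.23) were further such genes. Of these, Nfkbie passed against mock in all 12 such fits (0.86 ± 0.21, adjusted p = 0.0068) and Fam129b did so except without D5 replicate 4 (0.69 ± 0.15, adjusted p = 0.0026), while Ccl20 passed in 8 of 12.

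The 5 of the 52 with the largest difference from D4 (mean of at least 5 CPM) were Shmt1, a serine hydroxymethyltransferase (log2 difference from D4 −0.80 ± 0.12), Pola1, the catalytic subunit of DNA polymerase α (−0.75 ± 0.16), Dnajc9, a histone chaperone (−0.73 ± 0.14), Ptma, prothymosin α (−0.71 ± 0.10), and Tcf19, a gene of the G1 to S transition (−0.71 ± 0.14). Dnajc9 was at 12.9, 11.7, 14.1 and 15.0 CPM against 15.3 to 24.1 (median 20.5) in mock, and Tcf19 at 19.9, 16.96, 17.4 and 15.8 against 20.6 to 29.6 (median 24.0), both without overlap and in all 12 fits that left out 1 library. Pola1 passed against mock in 4 of the 12.

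**Figure D5:**
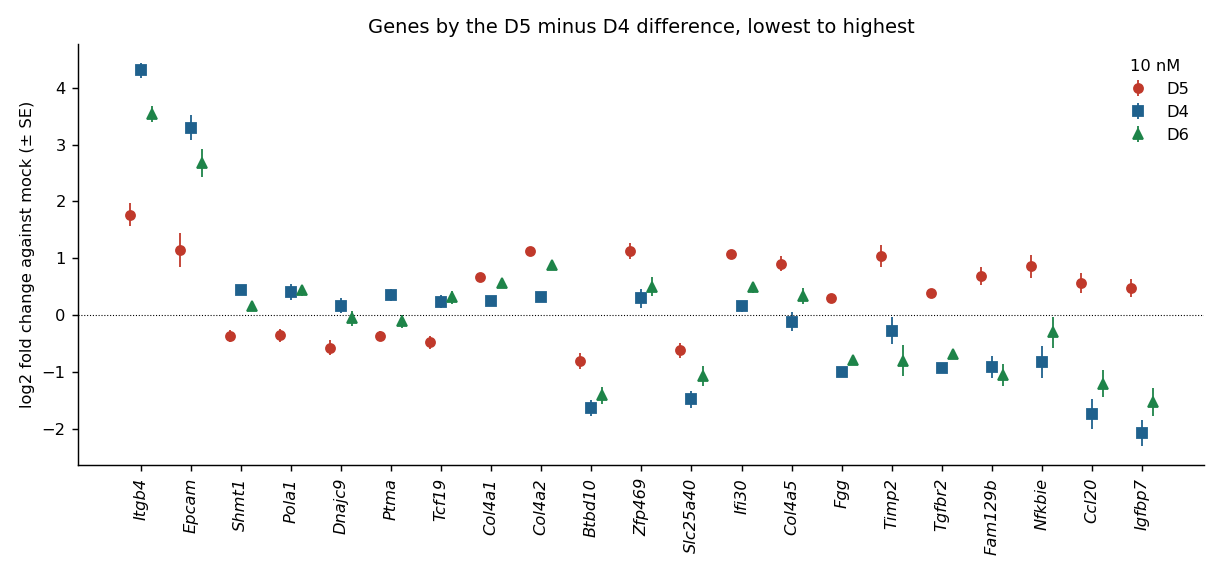
Log2 fold change against mock (point, with the SE as a bar) with D5, D4 and D6 at 10 nM for 21 named genes, ordered by the difference of D5 from D4. Itgb4 and Epcam rise more with D4 and D6 than with D5, and Igfbp7, Ccl20 and Fam129b are above 0 with D5 and below 0 with D4 and D6.

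With D5 at 50 nM, 220 genes were lower and 513 higher (733 in all), and Ttr, Otud4, Zfp850, Col4a2, Ifi30, Peg3 and Krt7 were at −9.30, −1.11, −1.70, 1.20, 1.28, 1.07 and 1.19 against mock. The count was 377 without replicate 3 at 50 nM and 447 without replicate 2. Not all of the 10 largest decreases at 10 nM passed edgeR's test at 50 nM. Parpbp (−0.53, adjusted p = 0.083), Fancd2 (−0.54, adjusted p = 0.19) and Cyb5d1 (−0.22, adjusted p = 0.65) did not. These comparisons share the mock libraries. Set directly against 0.1 nM, which shares no library with it, D5 at 10 nM had 108 genes lower and 185 higher, among them Otud4 (−0.99 ± 0.08), Mki67 (−0.70 ± 0.08), Ccnb1 (−0.90 ± 0.14), Col4a1 (0.60 ± 0.07), Peg3 (1.20 ± 0.13), Eprn (1.30 ± 0.19) and Tnrc6a (0.44 ± 0.07). The count was 169 without D5 10 nM replicate 3, 174 without 0.1 nM replicate 4 and 262 without 0.1 nM replicate 2, the library in which Ttr was high. Some genes higher than mock at 10 nM did not pass against 0.1 nM, among them Acacb (0.07), Lpin1 (0.001), Ppp1r15a (−0.005) and Cd68 (−0.06).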

How the data were processed

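Total RNA libraries (TruSeq Stranded Total RNA) of primary mouse hepatocytes were sequenced in 2 runs each. The authors trimmed reads with fastq-mcf (mean quality at least 28, length at least 36), aligned them to GRCm39 with STAR and made the deposited counts per gene with featureCounts 2.0.2 from uniquely aligned reads of mapping quality at least 10. Versions are from the submitters' processing notes, which also name DESeq2 1.32.0. Genes with near-identical copies (ribosomal proteins, Tubb2a and Tubb2b, Cyp2c) may have lost reads. Tables of the authors' own comparisons hold fold changes and p-values, which were not used. The symbol column of 1 such table gave the gene names.

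The counts of both runs were summed for each library and ERCC rows were set aside. Of 55416 genes listed, 52340 had a symbol. Groups were taken from the labels. Each comparison was fitted on its own libraries with edgeR 4.0.16 in R 4.3.3 (filterByExpr, TMM normalization, quasi-likelihood F test, Benjamini-Hochberg adjustment over all genes tested, threshold 0.05). Levels are TMM-normalized CPM computed from the counts. The SE of a log2 fold change is its size divided by the square root of the F statistic. On simulated data for D5 at 10 nM against mock, with 50 genes at each fold, the test recovered 100% of changes of −1 and 80% of changes of −0.5 on the log2 scale. It made 18 false calls, beside 200 genes truly changed of 11168 tested. No GC difference between the groups was simulated.

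The genes named are Ttr and Gapdh, and the 10 largest decreases and 10 largest increases (called, mean of at least 5 CPM, no overlap of D5 and mock). Up to 4 members of each list with the smallest adjusted p were added. So were the called genes of each seed class with the largest decrease and no overlap. The last were 5 genes in each direction with the largest difference from D4, among those called against both with a mean of at least 5 CPM. Where the rule asks for no overlap, its absence is no further support. Other genes were chosen after their values were seen, as were the 13-base match and the GC offset. The members and lists were chosen with earlier results of these data known. Some genes that the rule names are not reported here. Alternatives were RLE size factors, DESeq2 1.42.0, 1 fit of all libraries, no filter, each run alone, the replicate number as a block, the GC offset, and leaving out each library. Python 3.11.15 was used for the summaries.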

Additional observations from a re-analysis of the deposited data

Results flagged for a closer look

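Single libraries stood apart from the rest of their group for 8 of the named genes. Of 200 groups of libraries examined, 2 of these cases were in D5 at 10 nM and 6 in mock, and chance alone gives about 1 in 20. Mock replicate 4 accounts for 4 of them. It was lowest for Col4a2 (236 CPM, the others 263 to 286), for Hmox1 (127 CPM, the others 181 to 232) and for Ctsd (432 CPM, the others 504 to 566), and highest for Il1r1 (28.8 CPM, the others 21.6 to 24.4). Without mock replicate 4, 745 genes passed the test with D5 at 10 nM. Mock replicate 3 was lowest for Btg2 (82.7 CPM, the others 99.9 to 114), and mock replicate 8 was highest for Krt19 (134 CPM, the others 105 to 116). Among the D5 libraries, replicate 1 was lowest for Ifi30 (55.7 CPM, the others 65.6 to 67.5), and replicate 4 was lowest for Mki67 (111 CPM, the others 113 to 114), a narrow range. What sets these libraries apart was not tested.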

How the results depend on the processing

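For D5 at 10 nM against mock, 923 genes passed with RLE size factors, 869 with DESeq2, 841 with 1 fit of all libraries, 920 without the filter, and 674 and 641 on the first and second sequencing run alone. Leaving out 1 library gave 588 to 1003 genes for D5 at 10 nM against mock, 1333 to 1909 against D4, 1544 to 1834 against D6, 169 to 346 against D5 at 0.1 nM, and 377 to 719 for D5 at 50 nM against mock. No call of D5 at 10 nM against mock changed sign under these settings. Of 1975 values of the 99 named genes under the alternatives, 1780 kept their side of the threshold and 195 no longer passed, 110 of these on leaving out a library. Of 1240 counts of list members, 199 moved by over 1.5 times.

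The main fits did not pair libraries by replicate number. Correlations of same-numbered deviations were −0.026 to 0.0768 for D5 at 10 nM and mock, and 0.00801 to 0.161 with D4. With D6 they were 0.0796 to 0.102, and all 4 libraries correlated best with their own number. Whether same-numbered libraries share an effect was not tested. Mock replicates 5 to 8 have no D5 library at 10 nM of the same number, so that each stands alone in its block. With the replicate block, 1210 genes passed against mock (770 of them among the 915), 2244 against D4, 2475 against D6 and 390 against D5 at 0.1 nM, and 738 for D5 at 50 nM against mock. Low counts, 3 to 22 per library at 10 nM, limit the comparison of Ttr between siRNAs.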
